A study of Mus musculus with 12 samples.

Results

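The comparison described here sets the libraries of both miR-155 reagents together against the control libraries of a mouse neuroblastoma line. Its members were chosen by the label alone: 4 libraries of cells given a miR-155 mimic and 4 of cells given a miR-155 inhibitor, 8 of the 12 libraries in all, against the 4 libraries of cells given a control small RNA. The question is whether genes responded in a way common to both reagents, and not in opposed directions. The cells were Neuro-2a, a fast-growing wild-type line of neural crest character that serves as a neuron-like model. All 3 groups, the controls included, were transfected with RNA Fit in medium without serum or antibiotics, moved to growth medium after 4 h and collected on day 2. The groups differed in the labels only in the small RNA given, miR-Control for the first and a mimic or an inhibitor of miR-155 for the others. The dose, chemistry and sequence of the reagents and the sequence of the control are not stated in the labels used here. All libraries come from 1 cell line, and nothing in the labels says that the 4 libraries of a group were separate cultures, so the p-values below measure the spread between these libraries, which may be technical.

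A mimic is a short double-stranded RNA that is loaded into Argonaute and acts like the natural microRNA, which lowers mRNAs that carry a match to its seed in their 3′ UTR. An inhibitor is a single-stranded antisense RNA that pairs with the microRNA and keeps it from its targets. Through the microRNA, the 2 reagents would therefore move a target in opposite directions, if the cells hold miR-155 for the inhibitor to block. The level of miR-155 in these cells was not among the values used here. Other features of transfected RNA are not tied to its sequence in this way: double-stranded RNA can be read by RIG-I, MDA5, TLR3, PKR and the OAS enzymes, which start an interferon response, and the carrier brings the RNA in through endosomes. A gene that differed from control alike in both groups would show in the pooled contrast and vanish from the contrast of mimic against inhibitor.

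The mature miR-155 strands are shown because a microRNA finds its targets through the seed, bases 2 to 8, given in capitals. Both are RefSeq entries on the plus strand of GRCm38.p6, the 5p strand at chr16:84714143-84714165 and the 3p strand at chr16:84714182-84714202. The labels do not say which strand the reagents represent.
mmu-miR-155-5p: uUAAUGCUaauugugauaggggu
mmu-miR-155-3p: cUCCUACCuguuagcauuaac

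A full match to the 5p seed followed by an A reads AGCATTAA in the DNA letters of a 3′ UTR and is called an 8mer. Among the genes tested, 15 reported miR-155 targets held at least 1 such site in their longest annotated 3′ UTR. One site is shown for each of the 6 most abundant of them, since these are the transcripts in which an opposed response could be measured most closely. The sites were matched to GRCm38, the capitals mark the 8mer and each window reads 5′ to 3′ on the strand of the gene. They lie at chr16:8660701-8660730 on the minus strand for Carhsp1, at chr4:65616191-65616220 on the plus strand for Trim32, at chr10:7906680-7906709 on the minus strand for Tab2, at chr15:96402458-96402487 on the plus strand for Arid2, at chr2:167690355-167690384 on the plus strand for Cebpb and at chr13:44920082-44920111 on the plus strand for Jarid2.
Carhsp1: actgtctgaaaAGCATTAAaagcatttgaa
Trim32: ctgttctatcaAGCATTAAactaataaaag
Tab2: ataaggtagaaAGCATTAAtgaaatgaaac
Arid2: gatgaaatagaAGCATTAAatatttttatc
Cebpb: tttccgtttcgAGCATTAAagtgaagacat
Jarid2: gattttgttttAGCATTAAactgttcaagt

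Depth was similar throughout, at 60695388 to 74200532 counts in a library and 13669 to 13836 genes detected. Total counts, genes detected and the share of counts in the 100 most abundant genes did not separate the 8 reagent libraries from the 4 controls (exact permutation p = 0.337, 0.202 and 0.921 over all placements of the controls, two-sided, and 0.506, 0.506 and 0.921 after Benjamini-Hochberg adjustment over the 3 features). Libraries of the 4 replicate numbers differed more than the groups did. The first principal component, 28.4% of the variance, set the 3 libraries numbered 4 (40.1 to 41.6) apart from the other 9 (-23.5 to -4.60). Control 2 stood alone at -34.7 on the second component, 12% of the variance, and its log2 values had an SD of 0.278 around the median library, against 0.144 to 0.254 for the other 8 libraries numbered 1 to 3. Control 2 is 1 of only 4 controls. For the genes named by rank, the axis genes and most gene lists, results that its removal turned or moved strongly are also given without it. Other list members are given with all libraries only, so their values may rest on control 2. CPM is a gene's count as a share of the library size. For the marker levels this size is the total counts, and elsewhere it is the scaled size unless total counts are named. Of 28 markers of neuroblastoma and sympathetic neurons, all 28 were in the deposited table and 24 exceeded a mean of 1 CPM. They were led by Prph (mean 1377 CPM), the peripheral neuron filament peripherin. Their summed level was 7969 to 8460 CPM in control, 8289 to 8354 in mimic and 8206 to 8460 in inhibitor libraries. Markers of other cell types summed to 12.7 to 15.8 CPM in control for the 8 of 14 glial and Schwann genes in the table and 12.9 to 14.8 CPM for the 11 of 17 immune and endothelial genes, and in the reagent libraries to 11.8 to 16.7 and 11.7 to 13.5 CPM. Of 17 fibroblast and mesenchymal markers 11 were in the table, summing to 1257 to 1708 CPM in control and 1252 to 1763 CPM in reagent libraries, most of it Vim (mean 1055 CPM), the vimentin gene, which neuroblastoma lines also express.

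No gene passed the test for a response common to both reagents. With edgeR's quasi-likelihood test and the replicate number as a block, 0 of 13014 genes tested were called at an adjusted p under 0.05 (0% called), and the smallest adjusted p was 1.00. At an unadjusted p under 0.05 there were 191 genes (1.47%), 91 higher in the reagents (0.699%) and 100 lower (0.768%). With no differences at all, a share of about 0.05 of the genes would be expected there, so 191 is no excess. The share was well below 0.05, so p-values ran high in this fit. The low count therefore cannot show that there was no response. Without control 2 the share was 9.28%, above the expected one. The opposed contrast, mimic against inhibitor, which uses no control library, also called 0 genes (0%), with 139 genes (1.07%) at an unadjusted p under 0.05. Each reagent on its own gave 0 called genes against control, with 191 (1.47%) at an unadjusted p under 0.05 for mimic and 161 (1.24%) for inhibitor. DESeq2 on the same genes called 0 in the pooled contrast, with 248 at an unadjusted p under 0.05; with its own filter it called 85, of which 81 were too low in counts for the test by edgeR. In bulk samples a lower value from fewer cells of a kind and one from less RNA per cell cannot be told apart.

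The pooled and the opposed fold changes were spread alike, though on scales that are not like for like. The pooled one is the mean of both reagents minus control, and the opposed one the full difference between mimic and inhibitor. At 10 CPM or more, their median standard errors were 0.0655 and 0.0757. Among the 9219 genes that averaged 10 CPM or more, the pooled log2 fold change lay within 0.25 of 0 for 99.7%, with 31 genes beyond, and the opposed one for 99.5%, with 46 beyond. The precision was sufficient for a bound on most of these genes: the 95% interval of the pooled change lay wholly within 0.5 of 0 for 9149 genes (99.2%), and that of the opposed change for 9073 (98.4%). The F statistic, which sets the difference against the spread between libraries, was greater in the pooled contrast for 6560 of 13014 genes (50.4%), with a median of 0.308 against 0.300. Of the 191 genes at an unadjusted p under 0.05 in the pooled contrast, 189 had both reagents on the same side of control, which the pooled contrast favours, and 10 were also under 0.05 for mimic against inhibitor.

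**Figure D1:**
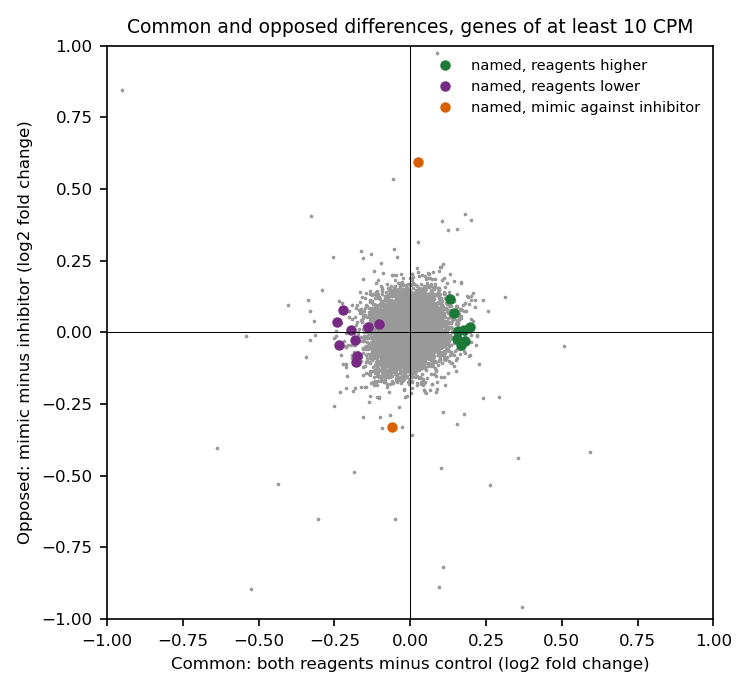
Each point is 1 of the 9219 genes that averaged 10 CPM or more (5 lie outside the axes), with the log2 fold change of both reagents against control on the x axis and of mimic against inhibitor on the y axis. The cloud is about as wide as it is tall, with 99.7% and 99.5% of genes within 0.25 of 0, and the coloured genes are the named ones above that level. The x axis takes the mean of the reagents and the y axis their full difference, so the widths are not like for like.

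Compared by replicate number, both reagents were above the control of the same number at all 4 numbers for 107 genes (0.822%) and below it at all 4 for 84 (0.645%), 191 in all (1.47%). Opposed placement, with mimic and inhibitor on different sides of control in the same order at all 4 numbers, was seen for 10 genes (0.0768%), mimic above in 4 (0.0307%) and inhibitor above in 6 (0.0461%). These shares are not like for like: 2 reagents that share a control fall on its same side more easily than on opposed sides, whatever the reagents do. With any 1 number left out, fewer comparisons have to fall the same way, so the counts are larger by construction. The reagents then lay on one side of control for 715 genes (5.49%) without number 1, 1465 (11.3%, 570 above and 895 below) without number 2, 487 (3.74%) without number 3 and 635 (4.88%) without number 4. They lay on opposed sides for 48 (0.369%), 72 (0.553%), 46 (0.353%) and 55 (0.423%). Without pairing by number, 10 genes (0.0768%) had the whole set of 8 reagent libraries above or below the whole set of controls.

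The genes named next are the 12 of smallest p in each direction among those with at least 5 CPM and both reagents on the same side of control at all 4 numbers, a condition that 80 of 9995 such genes met above control (0.8%) and 50 below (0.5%). Their separation by number is therefore part of their selection, and none passed the test (edgeR adjusted p = 1.00 for each). The 12 on the higher side were spread over unlike functions: secretory and lysosomal pathway (Tmem251, Selenos, P4ha1), RNA processing and translation (Snrpf, Upf3b, Eef1akmt2, Kri1, Mrpl52), the cytoskeleton (Nes), and others (Ecd, Uaca, Mnd1).

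Tmem251, a Golgi membrane protein needed to tag lysosomal enzymes with mannose 6-phosphate, had the smallest p. It measured 6.17, 6.85, 7.17 and 5.09 CPM in control libraries 1 to 4, 9.29, 9.04, 8.20 and 6.37 CPM in mimic and 8.71, 8.01, 7.66 and 6.55 CPM in inhibitor. Libraries numbered 4 were lowest in each group, and the reagent range of 6.37 to 9.29 CPM overlapped the control range. The pooled log2 fold change was 0.33 (95% interval 0.14 to 0.52, unadjusted p = 0.00264), 0.37 for mimic and 0.29 for inhibitor against the shared controls. Selenos, an endoplasmic reticulum selenoprotein of the pathway that removes misfolded proteins, measured 26.1, 25.1, 26.5 and 33.0 CPM in control, 29.8, 33.2, 29.4 and 35.3 CPM in mimic and 32.3, 31.5, 28.4 and 33.7 CPM in inhibitor. Control 4 exceeded 5 of the 8 reagent libraries, and the pooled log2 fold change was 0.20 (95% interval 0.06 to 0.33). P4ha1, the catalytic subunit of collagen prolyl 4-hydroxylase, measured 75.0, 74, 74.8 and 240 CPM in control, 88.9, 87.5, 82.2 and 262 CPM in mimic and 77.1, 78.3, 79.0 and 256 CPM in inhibitor. Within numbers 1 to 3 the controls spanned only 1 CPM and every reagent library lay above them, while the libraries numbered 4 were far higher in all groups. Its pooled log2 fold change was 0.13 (95% interval 0.04 to 0.22), and mimic exceeded inhibitor by 0.11 (unadjusted p = 0.0318).

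Of the RNA processing genes, Snrpf, which encodes the SmF ring protein of spliceosomal snRNPs, measured 35.7, 34.7, 33.1 and 38.3 CPM in control, 37.8, 39.3, 39.8 and 39.4 CPM in mimic and 38.0, 40.0, 38.7 and 42.1 CPM in inhibitor. Only control 4 reached into the reagent range, and the pooled log2 fold change was 0.15 (95% interval 0.04 to 0.26). Its exons overlap those of Ccdc38 on the opposite strand over 65.9% of their length, and whether counting used strand is not given, so reads of the pair cannot be told apart. Mrpl52, a large-subunit protein of the mitochondrial ribosome, measured 21.0, 20.9, 21.1 and 22.6 CPM in control, 24.4, 22.8, 23.8 and 24.6 CPM in mimic and 25.2, 22.2, 23.5 and 24.3 CPM in inhibitor. Control 4 lay above 1 reagent library, inhibitor 2, and the pooled log2 fold change was 0.16 (95% interval 0.04 to 0.28). Upf3b, which links the exon junction complex to nonsense-mediated decay, measured 7.60, 5.15, 6.52 and 7.93 CPM in control, 9.0, 8.41, 7.88 and 8.35 CPM in mimic and 9.06, 8.84, 7.34 and 8.34 CPM in inhibitor. Control 2 was its lowest library, and the pooled log2 fold change was 0.31 (95% interval 0.08 to 0.54) with all libraries and 0.18 without control 2. Eef1akmt2, a lysine methyltransferase of the elongation factor eEF1A, had a mean of 4.47 ± 0.752 CPM (SD, n = 4) in control, 5.64 ± 0.279 in mimic and 5.41 ± 0.290 in inhibitor, a log2 fold change of 0.32 (95% interval 0.09 to 0.55). Kri1, a nucleolar protein of ribosome assembly, had a log2 fold change of 0.18 and overlaps Atg4d on the opposite strand over 33.6% of its exons.

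Nes, the intermediate filament nestin of neural progenitors, measured 35.4, 35.3, 33.3 and 74.3 CPM in control, 39.6, 44.0, 37.0 and 79.5 CPM in mimic and 41.9, 40.7, 39.4 and 74.7 CPM in inhibitor. As with P4ha1, the number 4 libraries were far above the rest, and within numbers 1 to 3 all 6 reagent libraries exceeded all 3 controls. The pooled log2 fold change was 0.18 (95% interval 0.06 to 0.30) with the block. Ecd, a regulator of the cell cycle and of splicing, had means of 58.3 ± 4.2 CPM (SD, n = 4) in control, 65.9 ± 4.01 in mimic and 62.9 ± 5.63 in inhibitor, a log2 fold change of 0.14. Uaca, a coiled-coil and ankyrin repeat protein, and Mnd1, a partner of Hop2 in meiotic recombination, had log2 fold changes of 0.17 and 0.27.

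On the lower side, Pbx4, a TALE homeodomain factor, was the 1 gene of the 24 in which the reagent and control libraries did not overlap. It measured 7.61, 8.55, 8.24 and 7.62 CPM in control, 6.31, 5.76, 6.36 and 7.52 CPM in mimic and 7.01, 6.89, 7.18 and 7.47 CPM in inhibitor. The gap between the highest reagent library, mimic 4 at 7.52 CPM, and the lowest control at 7.61 CPM was small beside the spread within groups. Its log2 fold change was -0.24 (95% interval -0.43 to -0.05, unadjusted p = 0.0201). Cdk10, a cyclin-dependent kinase that pairs with cyclin M, had the smallest p of the lower side (unadjusted p = 0.00633). It measured 31.2, 36.0, 34.1 and 23.5 CPM in control, 28.4, 24.1, 30.5 and 21.2 CPM in mimic and 28.9, 26.9, 29.9 and 21.7 CPM in inhibitor. Here control 2 was the highest library and the number 4 libraries the lowest of each group, and the log2 fold change of -0.23 (95% interval -0.39 to -0.08) became -0.14 without control 2.

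Several of the lower genes act in transcription or its control. Med18, a head subunit of Mediator, measured 18.7, 19, 19.9 and 18.3 CPM in control, 14.8, 16.6, 17.4 and 16.5 CPM in mimic and 17.3, 18.3, 17.0 and 16.4 CPM in inhibitor. Inhibitor 2 and control 4 met at 18.3 CPM, and the log2 fold change was -0.18 (95% interval -0.31 to -0.04). Polr3gl, a subunit of RNA polymerase III, had means of 14.7 ± 2.38 CPM (SD, n = 4) in control, 12.8 ± 1.55 in mimic and 12.9 ± 2.61 in inhibitor, with a log2 fold change of -0.20 that became -0.12 without control 2. Atxn7l3b, linked to the deubiquitinating module of SAGA, had the smallest log2 fold change of the 24, -0.10 (95% interval -0.20 to -0.01), at 121 ± 5.36 CPM in control. Nanos1, an RNA-binding translational repressor that works with Pumilio proteins, measured 17.6, 13.3, 14.3 and 14.7 CPM in control, 15.2, 12.1, 11.8 and 12.1 CPM in mimic and 10.6, 12.5, 13.6 and 12.9 CPM in inhibitor. Its libraries overlapped, since mimic 1 exceeded 3 of the controls, and the log2 fold change was -0.24 (95% interval -0.46 to -0.02).

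The other lower genes belong to membranes, synapses and the cytoskeleton. Cyp4f13, a cytochrome P450 of the fatty acid hydroxylating family, had means of 8.59 ± 0.680 CPM (SD, n = 4) in control, 7.62 ± 0.687 in mimic and 6.68 ± 0.976 in inhibitor and the largest negative log2 fold change, -0.27 (95% interval -0.48 to -0.06). Insyn1, a scaffold of inhibitory synapses, had a log2 fold change of -0.26, and Zdhhc24, of the palmitoyltransferase family, one of -0.22. Tmem38b, a potassium channel of the endoplasmic reticulum, and Bcas3, a WD repeat protein, both had -0.18. Klhl17, a neuronal actin-binding kelch protein, had -0.14, or -0.09 without the 3 libraries numbered 2. For the 24 genes together, the lowest adjusted p on leaving out any 1 library was 0.231 (edgeR). The direction was kept in each such fit, which follows largely from their selection with both reagents on one side of control at every number.

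**Figure D2:**
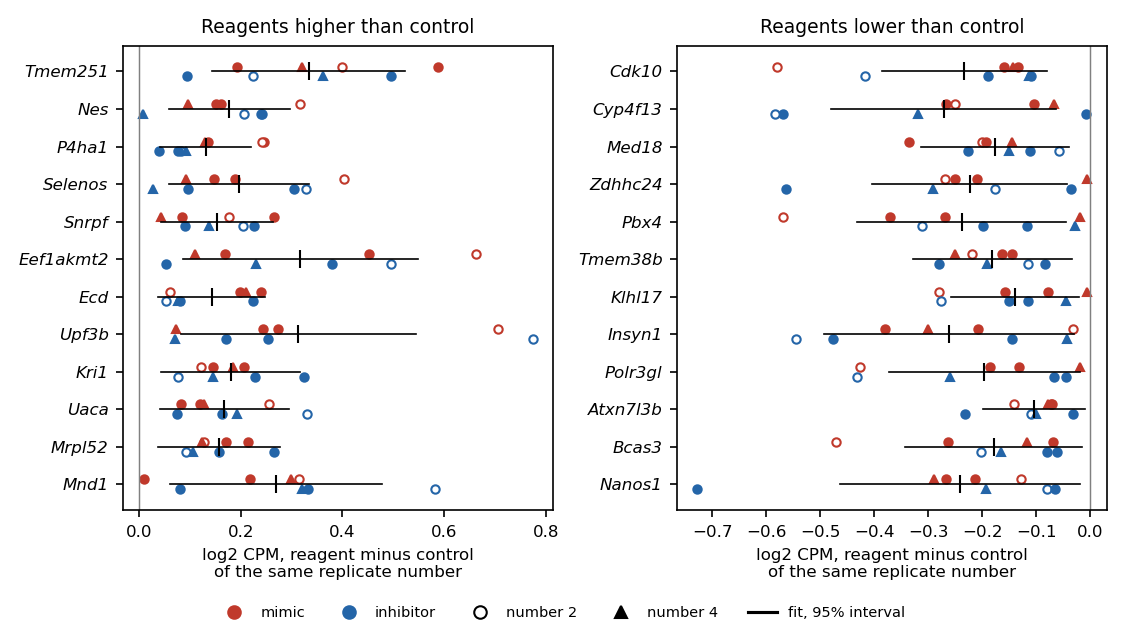
Each point is the log2 CPM of 1 reagent library minus the control of the same replicate number (mimic red, inhibitor blue, number 2 open, number 4 triangles), with genes higher than control on the left and lower on the right. The black line is the pooled log2 fold change with its 95% interval; all 8 points of each gene lie on one side of 0 because the genes were chosen so, and the differences stay under 0.8.

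The opposed contrast is the counterpart. Its gene of smallest p was Slc38a6, which did not pass the test. Slc38a6, a member of the amino acid transporter family SLC38, measured 12.9, 17.0, 19.1 and 12.9 CPM in control, 17.3, 20.2, 19.7 and 19.8 CPM in mimic and 11.6, 12.7, 12.3 and 14.3 CPM in inhibitor. Every mimic library lay above every inhibitor library, while controls covered the space between. Its log2 fold change was 0.59 for mimic against inhibitor (95% interval 0.34 to 0.84, unadjusted p = 0.000287, edgeR adjusted p = 1.00) and 0.03 for both reagents against control. Itpr2, an inositol trisphosphate receptor, had 0.41 for mimic against inhibitor and -0.01 pooled, and Sri, the calcium-binding protein sorcin, had -0.33 and -0.06. Phactr2, a regulator of protein phosphatase 1 and actin, combined both components, with 0.33 for mimic against inhibitor and 0.22 pooled: it measured 5.74, 4.41, 5.60 and 6.03 CPM in control, 7.24, 6.28, 7.01 and 7.85 CPM in mimic and 6.22, 4.91, 5.59 and 5.80 CPM in inhibitor, so that the mimic libraries were high and the inhibitor libraries lay with control.

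The 4 genes of the axis in the study's title showed no common response that passed the test. Pparg, the lipid-sensing nuclear receptor, measured 19.3, 18.7, 20.2 and 24 CPM in control, 18.9, 15.5, 19.7 and 25.1 CPM in mimic and 14.5, 16.1, 18.2 and 23.6 CPM in inhibitor, a pooled log2 fold change of -0.13 (95% interval -0.30 to 0.03, unadjusted p = 0.102). Esrra, the orphan receptor ERRα, had -0.08 (95% interval -0.25 to 0.08), a direction set by control 2 at 121 CPM: without that library it was 0.03. Dnm1l, the mitochondrial fission GTPase Drp1, measured 87.1, 47.0, 68.1 and 88.8 CPM in control and 62.5 to 79.0 CPM in the 8 reagent libraries. The control libraries alone spanned more than all reagent libraries, and the log2 fold change was -0.0015 (95% interval -0.27 to 0.27). Ppargc1a, the coactivator PGC-1α, was counted 5 times in control 2 and not at all in the other 11 libraries, and was not tested. Such an absence allows at most 0.0404 to 0.0494 CPM on total counts in a library.

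Gene lists on what transfected RNA and carriers are known to touch were compared with all genes tested, of which 46.4% were higher in the reagents, with a median log2 fold change of -0.0061. That share was 50.4% with DESeq2 size factors and 53.2% with upper-quartile scaling. For mimic against inhibitor, 51.2% of all genes tested were higher in mimic (median 0.0020). No member of any list was called, so the counts below describe the direction of differences that did not pass the test. The controls also received a small RNA with the same carrier, so a response shared by all 3 groups would not show in these contrasts. Transcripts of foreign RNA sensing were close to the background: of 15 RNA sensors and adaptors tested, 9 were higher and 6 lower (median 0.0110). Irf3, the transcription factor downstream of the sensors, measured 40.4, 49.3, 43.9 and 36.5 CPM in control and 35.9 to 45.5 CPM in reagent libraries (log2 fold change -0.11), and Ifih1, which encodes MDA5, 0.572 to 2.19 CPM in control and 0.525 to 1.63 CPM in reagent libraries. Of 25 interferon-stimulated genes, 8 were higher and 17 lower (median -0.0176), and without control 2 the split was 16 higher and 9 lower (median 0.0131). Isg15, a ubiquitin-like protein that interferon strongly induces, measured 1.26, 2.08, 1.47 and 3.49 CPM in control, 1.08, 1.48, 1.02 and 3.64 CPM in mimic and 1.13, 1.36, 1.33 and 3.87 CPM in inhibitor, highest in the libraries numbered 4 of every group, with the groups overlapping. Cmpk2, a mitochondrial nucleotide kinase of the interferon response, had 0.17 (95% interval -0.06 to 0.39), and Parp9, an ADP-ribosyltransferase, -0.13.

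Inflammatory and immediate-early genes leaned lower, through control 2. Of 23 NF-kB and inflammatory genes, 6 were higher and 17 lower (median -0.0637), and without control 2 the split was 18 higher and 5 lower (median 0.0321). Of 28 immediate-early genes, 8 were higher and 20 lower (median -0.0446), and without control 2, 14 and 14. Egr2, a zinc finger factor of the early growth response, was the member with an unadjusted p under 0.05. It measured 4.27, 3.87, 3.61 and 6.32 CPM in control, 3.58, 2.43, 3.38 and 5.41 CPM in mimic and 3.22, 3.67, 2.64 and 4.87 CPM in inhibitor, a log2 fold change of -0.31 (95% interval -0.59 to -0.02, unadjusted p = 0.0359). Each reagent library was below the control of its number, while number 4 was highest in every group. Of 33 genes of the integrated stress and unfolded protein responses, 14 were higher and 19 lower (median -0.0133), against 25 higher and 8 lower without control 2. Hspa5, the chaperone BiP, measured 444, 429, 434 and 839 CPM in control, 424, 571, 460 and 814 CPM in mimic and 512, 525, 442 and 818 CPM in inhibitor, with libraries numbered 4 far above the others in each group and the groups overlapping. Of 25 p53 target and apoptosis genes, 12 were higher and 13 lower, or 14 and 11 under both other scalings. Cdkn1a, the cell cycle inhibitor p21, had -0.15 (95% interval -0.36 to 0.07).

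Lists of sterol synthesis, heat shock, hypoxia, cell cycle and neuroblastoma genes had medians above 0 at every replicate number. The first 2 had the highest pooled medians of the 24 lists. Of 32 genes of cholesterol and fatty acid synthesis, 29 were higher and 3 lower, with a median log2 fold change of 0.0650, above 0 at all 4 numbers. The median was 0.0586 for mimic and 0.0728 for inhibitor against the shared controls, and -0.0194 for mimic against inhibitor, the last turning to 0.0462 without mimic 1 and 0.0470 without inhibitor 1. The pooled median was 0.0464, with 25 of 32 higher, without control 2, and between 0.0354 and 0.102 on leaving out any 1 library. Sqle, squalene epoxidase, measured 184, 169, 178 and 434 CPM in control, 175, 237, 198 and 435 CPM in mimic and 206, 212, 181 and 448 CPM in inhibitor. Its number 4 libraries were far above the rest in all groups, mimic 1 lay below control 1, and the pooled log2 fold change was 0.14 (95% interval -0.01 to 0.30, unadjusted p = 0.0713). Acaca, acetyl-CoA carboxylase, had 0.10 (95% interval -0.02 to 0.21), Insig1, the sterol-regulated anchor of SREBP, 0.17 (95% interval -0.06 to 0.40), and Scd1, a stearoyl-CoA desaturase, 0.16 (95% interval -0.07 to 0.39). The members share regulators and are not independent, and none had an unadjusted p under 0.05, against 1.47% of all genes.

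Of 18 heat shock chaperones, 17 were higher and 1 lower, with a median of 0.0476, or 0.0356 with 13 of 18 higher without control 2. Dnajb1, an Hsp40 cochaperone of Hsp70, measured 53.2, 58.7, 58.0 and 90.3 CPM in control, 58.1, 66.0, 64.2 and 99.0 CPM in mimic and 64.5, 59.2, 62.4 and 98.3 CPM in inhibitor. Each reagent library lay above the control of its number, and the log2 fold change was 0.14 (95% interval 0.02 to 0.25, unadjusted p = 0.0227). Hsp90aa1, the inducible Hsp90, measured 539, 414, 459 and 815 CPM in control, 521, 581, 492 and 774 CPM in mimic and 571, 588, 500 and 750 CPM in inhibitor. Control 2 was its lowest library and the reagents numbered 4 were below control 4, and the log2 fold change was 0.13 (95% interval -0.05 to 0.30). Of 29 endosome and lysosome genes, 10 were higher and 19 lower (median -0.0249, and 18 and 11 without control 2). Ctsl, the lysosomal protease cathepsin L, went the other way from most of its list at 0.14 (95% interval 0.02 to 0.26, unadjusted p = 0.0284). Of 24 antioxidant genes, 14 were higher and 10 lower (median 0.0027), with 19 and 5 without control 2 (median 0.0356) and 9 and 15 without control 4 (median -0.0189). Its member Cat, catalase, had 0.11 (unadjusted p = 0.0336).

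Mitochondrial and ribosomal lists leaned in the opposed contrast but not in the pooled one when all libraries were used, and both leans turned on single libraries. Of 76 nuclear-encoded subunits of oxidative phosphorylation, 37 were higher and 39 lower in the pooled contrast (median -0.0008), while for mimic against inhibitor 9 were higher and 67 lower (median -0.0580, or 0.0051 without inhibitor 1). The pooled median of this list, near 0, changed sign with DESeq2 size factors (0.0060) and upper-quartile scaling (0.0101). Of 51 cytosolic ribosomal protein genes, 21 were higher and 30 lower pooled (median -0.0189), and 8 and 43 for mimic against inhibitor (median -0.0593, or 0.0035 without inhibitor 1). Without control 2, the pooled splits became 66 higher and 10 lower for the former and 48 higher and 3 lower for the latter, so the common component of both lists turned on that library. Atp5k, a subunit of ATP synthase, measured 28.0, 35.2, 33.6 and 31.3 CPM in control, 31.1, 38.8, 37.6 and 39.6 CPM in mimic and 40.8, 33.7, 36.1 and 35.7 CPM in inhibitor, a pooled log2 fold change of 0.20 (95% interval 0.01 to 0.38, unadjusted p = 0.0405) with overlapping groups. Rpl23 and Rpl38, of the large ribosomal subunit, had 0.12 and 0.18 (unadjusted p = 0.0359 and 0.0448). Of 23 regulators of mitochondrial biogenesis, 7 were higher and 16 lower (median -0.0150, or -0.0729 without control 2), with Polg, the mitochondrial DNA polymerase, at -0.10 (unadjusted p = 0.0367). Of 20 fission and fusion genes, 9 were higher and 11 lower (median -0.0073), with 4 and 16 without control 2 (median -0.0343), 13 and 7 without control 1 (median 0.0167) and 10 and 10 with upper-quartile scaling (median 0.0040).

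For growth and metabolism, 29 of 42 cell cycle genes were higher and 13 lower (median 0.0183), with Mki67, the proliferation antigen, at 152, 90.9, 107 and 288 CPM in control, 161, 173, 115 and 275 CPM in mimic and 134, 145, 119 and 273 CPM in inhibitor. Its control 2 was the lowest of all 12 libraries and its log2 fold change was 0.19 (95% interval -0.07 to 0.45). Glycolysis had 12 higher and 7 lower of 19 (median 0.0194). The split was 17 and 2 without control 2, 4 and 15 without control 1 or without control 4, and 3 and 16 without inhibitor 1 (medians 0.0871, -0.0324, -0.0257 and -0.0152), so its direction was set by single libraries. The hypoxia response, which bears on the study's title, had 16 higher and 7 lower of 23 in the pooled contrast (median 0.0192) and 21 higher and 2 lower for mimic against inhibitor (median 0.0699, and 0.0549 to 0.0840 on leaving out single libraries). Ndrg1, a hypoxia-induced gene, measured 22.5, 23.1, 21.4 and 66.5 CPM in control, 23.7, 17.2, 21.7 and 73.0 CPM in mimic and 21.9, 15.9, 18.1 and 72.4 CPM in inhibitor, far higher in the libraries numbered 4 whatever the group. Of 25 neuroblastoma and sympathetic neuron genes tested, 16 were higher and 9 lower (median 0.0297).

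**Figure D3:**
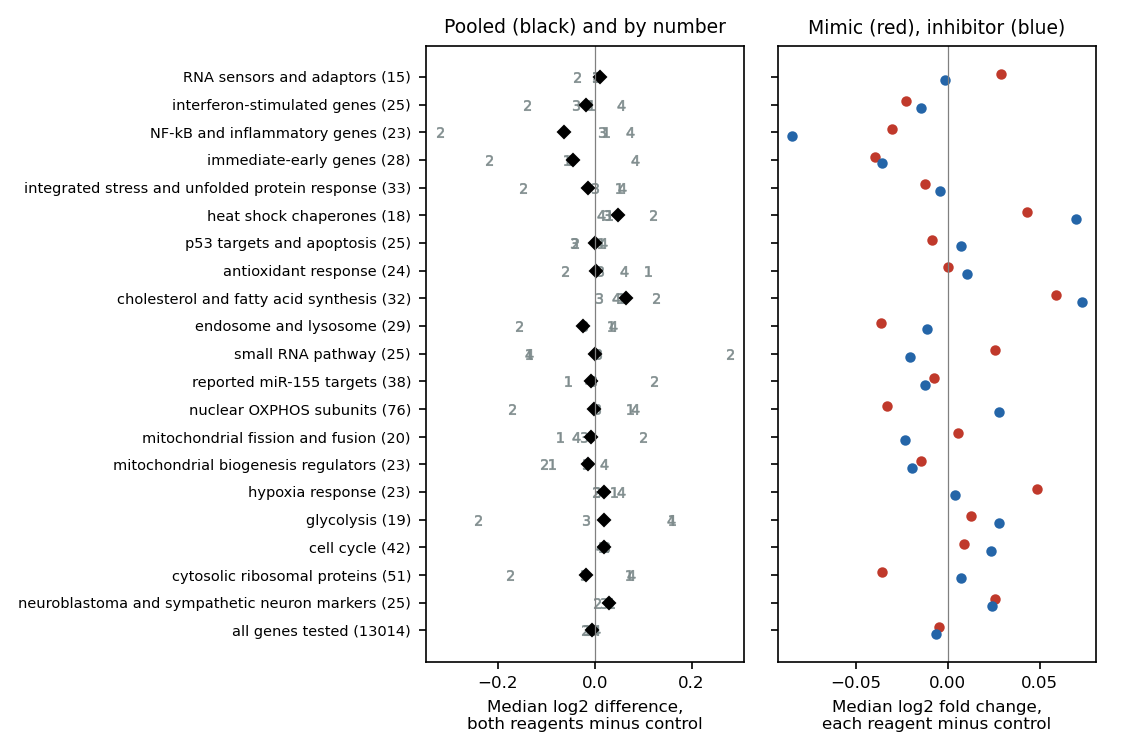
The left panel covers the gene lists with at least 15 members tested (number in brackets) and all genes tested. It gives the median log2 fold change of both reagents against control (black) and the median log2 difference at each replicate number (grey digits). The right panel gives the median for each reagent against the shared controls; digit 2 lies farthest from 0 in most lists, and 5 lists lie above 0 at every number (cholesterol and fatty acid synthesis, heat shock chaperones, hypoxia response, cell cycle and neuroblastoma markers).

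The microRNA machinery and its targets were the lists in which an opposed response would be sought. Of 25 genes of the small RNA pathway, 13 were higher and 12 lower in the pooled contrast (median 0.0004) and 22 higher and 3 lower for mimic against inhibitor (median 0.0509, and 0.0018 to 0.0937 on leaving out single libraries), while without control 2 the pooled split was 5 higher and 20 lower. Drosha, the nuclear nuclease of microRNA processing, measured 272, 246, 261 and 266 CPM in control, 289, 263, 280 and 276 CPM in mimic and 261, 268, 266 and 277 CPM in inhibitor, with overlap of all groups and a pooled log2 fold change of 0.06. Of 38 reported miR-155 targets tested, 17 were higher and 21 lower pooled (median -0.0073), and this median changed sign with upper-quartile scaling (0.0040) and ran from -0.0370 to 0.0266 on leaving out single libraries. For mimic against inhibitor, 18 of these targets were higher and 20 lower (median -0.0055, and -0.0284 to 0.0214 on leaving out single libraries). Cebpb, an activator of myeloid and adipocyte genes whose site is printed above, measured 106, 128, 118 and 76.5 CPM in control, 114, 91.2, 109 and 78.0 CPM in mimic and 104, 101, 116 and 77.2 CPM in inhibitor. Its log2 fold change was -0.12 for mimic and -0.10 for inhibitor against the shared controls and -0.02 for mimic against inhibitor. Control 2 was its highest library, and at the other numbers reagent libraries lay on both sides of control. Cebpb also overlaps Peds1 on the opposite strand over 20.7% of its exons. Jarid2, a cofactor of Polycomb repressive complex 2 and also shown above, measured 70.7, 52.5, 60.2 and 110 CPM in control, 66.7, 74, 63.7 and 110 CPM in mimic and 64.6, 71.1, 65.0 and 115 CPM in inhibitor. Its log2 fold changes were 0.12 and 0.11 for mimic and inhibitor against control and 0.0036 for mimic against inhibitor (95% interval -0.19 to 0.20). For the other sites shown, mimic against inhibitor gave -0.04 for Carhsp1 (95% interval -0.19 to 0.11), -0.04 for Trim32 (-0.17 to 0.09), 0.13 for Tab2 (-0.07 to 0.33) and 0.09 for Arid2 (-0.20 to 0.37).

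Over all genes, 12853 of the 13014 tested had an annotated 3′ UTR and 400 of these held at least 1 AGCATTAA. In the pooled contrast these 400 had a median log2 fold change of -0.0004, with 198 higher and 202 lower (50.5% lower), against -0.0063 and 53.7% lower for the 12453 genes with none. For mimic against inhibitor, the 8mer genes had a median of 0.0203, with 256 higher and 144 lower (36.0% lower), against 0.0010 and 49.3% lower for genes with none. Against the shared controls their median was 0.0120 for mimic and -0.0093 for inhibitor. The lean was thus toward higher values in mimic, the reverse of the lowering by a mimic described above. The part of 3′ UTR length or base composition in this lean was not tested. By replicate number the opposed median of the 8mer genes was 0.0890, 0.0147, -0.0189 and -0.0140, so it was above 0 at numbers 1 and 2 only, and on leaving out 1 library it ran from -0.0090 without mimic 2, with -0.0089 without inhibitor 1, to 0.0528 without inhibitor 2. The pooled median ran from -0.0489 without control 2 to 0.0370 without control 1.

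**Figure D4:**
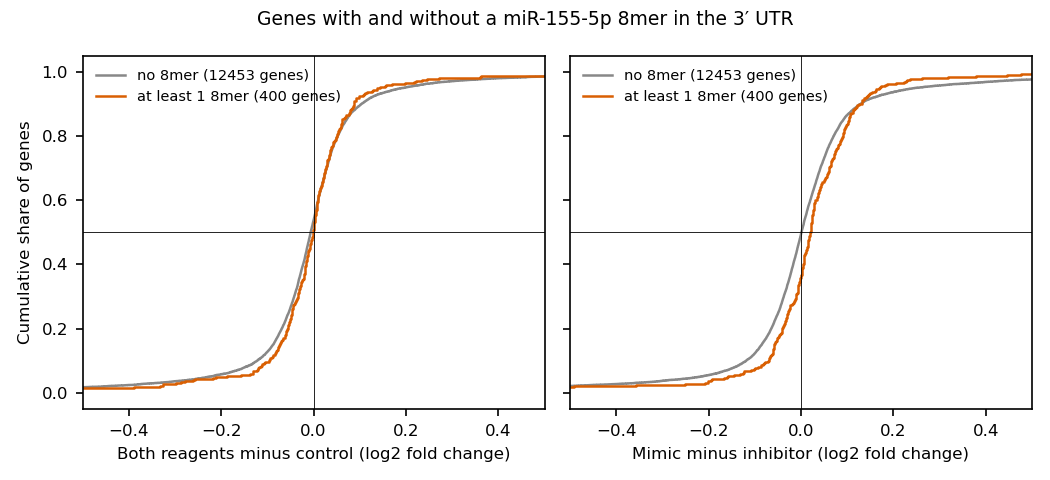
Cumulative share of genes (y axis) by log2 fold change (x axis) for the 400 genes with a miR-155-5p 8mer in the 3′ UTR (orange) and the 12453 with none (grey), for both reagents against control on the left and mimic against inhibitor on the right. The curves lie close together on the left (50.5% and 53.7% lower). In the right panel the orange curve lies to the right of the grey one near 0, toward higher values in mimic (36.0% and 49.3% lower).

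Control 2 was the library on which the pooled comparison rested most. Without it, 1218 genes (9.28%) had an unadjusted p under 0.05 in the pooled contrast, against 191 (1.47%) with all libraries, and 1 gene was called by edgeR: Gm49378, at a log2 fold change of -1.92 (adjusted p = 4.36e-06). Gm49378, named after its values were seen, is a gene model that overlaps Ipo4 on the same strand over 78.9% of its exons, so its counts are uncertain. On total counts it measured 41.9, 3.74, 40.6 and 34.2 CPM in control, 2.36, 2.91, 2.13 and 2.55 CPM in mimic and 52.4, 34.0, 39.7 and 36.7 CPM in inhibitor. It was low in all 4 mimic libraries and in control 2 and high in the other 7, so its pooled difference came from mimic alone. Leaving out any other library gave 136 to 303 genes at an unadjusted p under 0.05 in the pooled contrast, the 303 without control 4. For mimic against inhibitor, the count of 139 became 394 without control 2 and 274 without inhibitor 2, and lay between 99 and 178 without any other library.

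**Figure D5:**
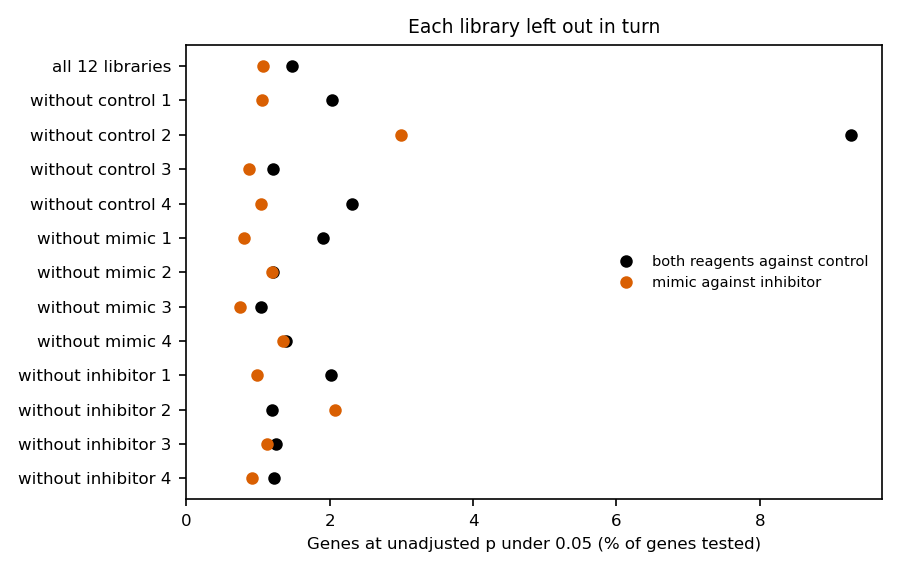
Share of genes tested at an unadjusted p under 0.05 (x axis, percent) with all 12 libraries and with each library left out in turn (y axis), for both reagents against control (black) and mimic against inhibitor (orange). The point without control 2 lies at 9.28% for the pooled contrast, and the other points lie between 0.754% and 3.00%.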

How the data were processed

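The authors deposited whole-number read counts and TPM values per gene for 15767 genes in 12 libraries. The submitters' processing notes name the build GRCm39 and the tools STAR, fastp, featureCounts, edgeR and StringTie. They give no versions, roles, annotation, strandedness or filters here. Groups came from the treatment in the labels. Counts were tested in R 4.3.3 with edgeR 4.0.16 (TMM, filterByExpr, robust quasi-likelihood, two-sided, Benjamini-Hochberg over 13014 genes), with group at 3 levels and the replicate number as a block. Contrasts were the mean of both reagents minus control, mimic minus inhibitor, and each reagent minus control. CPM values use TMM-scaled library sizes unless total counts are named. Intervals are 95% and rest on the spread between libraries; the floor for 0 counts is 3 counts and covers counting error only. The deposited TPM values entered only as alternatives, tested with limma 3.58.1 on log2(TPM + 1) and log2(TPM + 0.1); other alternatives were DESeq2 1.42.0, other scalings and filters, no block, and each library or number left out. The scripts were first tested on simulated data.

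The libraries compared were chosen by label. The gene lists were written with earlier results of these data known, and lists carry no test. Named genes were up to 12 per direction by the rule given in the text, up to 4 of smallest p for mimic against inhibitor, the 4 axis genes, and up to 4 of smallest p per list described. Replicates of one group differed well beyond sampling noise, so none was taken as a copy. Gene symbols came with the tables for 15499 genes and from a name table for 260. The 3′ UTRs, site positions and exon overlaps came from GENCODE M21 on GRCm38, which is not the authors' build, matched by gene identifier.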

Additional observations from a re-analysis of the deposited data

Results flagged for a closer look

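Among 102 groups of 4 libraries tested for the named genes, 14 held a library whose gap to the next was large beside the range of its group (Dixon's 95% value), where chance gives about 1 in 20. Libraries numbered 4 made up 11 of these. For Nes these were control 4 at 74.3 CPM, mimic 4 at 79.5 CPM and inhibitor 4 at 74.7 CPM, and for P4ha1 control 4 at 240 CPM, mimic 4 at 262 CPM and inhibitor 4 at 256 CPM, all above the rest of their group. Kri1 in mimic 4 (19.6 CPM), Mrpl52 in control 4 (22.6 CPM), and Itpr2 in control 4 (10.4 CPM) and inhibitor 4 (8.54 CPM) were also high. Bcas3 in inhibitor 4 (8.52 CPM) was low. At other numbers, Nanos1 was high in mimic 1 (15.2 CPM), Slc38a6 was low in mimic 1 (17.3 CPM) and Dnm1l was low in mimic 3 (62.5 CPM).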

How the results depend on the processing

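The absence of called genes was kept in the pooled contrast under other scalings, a 2-level group term, limma on TPM, no filter, a mean of at least 10 CPM and robust estimation off. DESeq2 with its own filter called 85 pooled genes (487 at an unadjusted p under 0.05) and 204 for mimic against inhibitor (407), of which 81 and 197 were outside the filter used by edgeR. On the genes of that filter, an alternative added after seeing the data, it called 0 and 5. Leaving out 1 library gave 0 to 1 called and 136 to 1218 at an unadjusted p under 0.05 in the pooled contrast, and 0 to 1 and 99 to 394 for mimic against inhibitor. Leaving out a replicate number gave 0 to 1 called and 109 to 1067 pooled, and 0 to 1 and 92 to 381 opposed. The calls are Gm49378 without control 2 and, without control 4, a gene too low in counts for the full comparison. At a mean of at least 10 CPM, 104 pooled and 54 opposed genes had an unadjusted p under 0.05, with fewer genes tested. With limma on log2(TPM + 1) and log2(TPM + 0.1), 234 and 233 opposed genes did. The cause of the differences between tools was not tested.

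The labels do not say what the replicate number marks, and same-numbered libraries deviated together in only 7 of 12 pairs (correlation above 0.1, range -0.0709 to 0.526), though 9 of 12 libraries matched their own number best. The block is in the fit because the comparison names it. With no replicate block, 0 genes were called in both contrasts, and 76 pooled and 77 opposed genes had an unadjusted p under 0.05.

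Genes on one side of control at every number came to 120 at 10 CPM or more and to 487 to 1465 on leaving out a replicate number, and genes on opposite sides to 3 and to 46 to 72. The counts without a number are larger because fewer comparisons must fall the same way. The pooled log2 fold change of Dnm1l changed sign with DESeq2 size factors (0.0051), upper-quartile scaling (0.0099), DESeq2 (0.0053) and limma (0.025), and on leaving out single libraries it ran from -0.20 to 0.11, with 0.109, 0.035 and 0.061 without replicates 1, 3 and 4. That of Esrra was 0.025 without control 2, with a range of -0.148 to 0.026 on leaving out single libraries or replicate numbers. Slc38a6 for mimic against inhibitor passed the threshold with DESeq2 (0.59, adjusted p = 0.000202) and not with edgeR. The pooled median of 15 of 24 gene lists changed sign on leaving out at least 1 library, 10 of them without control 2. With 4 controls, the median standard error of the pooled log2 fold change was 0.0655 for single genes at 10 CPM or more. A difference must be well above its standard error before its interval excludes no change. For a gene of that precision, differences somewhat above 0.0655 are therefore not resolved either. With all libraries, edgeR called no gene in the pooled contrast at any size of difference. The standard error is for single genes and does not apply to the list medians, which carry no test.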

Other observations

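DESeq2 called 4 pooled genes that edgeR also tested and did not call. All were named after their values were seen. Gm21154, a gene model, measured on total counts 5.33, 4.34, 5.38 and 1.28 CPM in control, 3.14, 2.90, 2.37 and 0.641 CPM in mimic and 3.00, 4.63, 3.96 and 0.736 CPM in inhibitor. Inhibitor 2 was the 1 reagent library above the control of its number, and the log2 fold change was -0.67 (DESeq2 adjusted p = 0.0280; edgeR -0.68, unadjusted p = 0.000686, adjusted p = 1.00). Pla2g4b, a cytosolic phospholipase A2, had a DESeq2 log2 fold change of 1.49 (adjusted p = 0.0462), and it shares 66.5% of its exon bases with Gm28042 on the same strand. Gm28048 and Gm49380 overlap B3gnt2 and Rnf26 on the same strand over 89.2% and 69.5% of their exons, and how reads were divided within these pairs is not known. Gm28048 had 2427 counts in control 2, 2354 in inhibitor 1, 122 in control 3, 70 in inhibitor 3 and 0 in the other 8 libraries, so it was high in libraries of different groups. Gm49380 had 0 counts in all 4 controls, 712, 231, 353 and 0 in mimic and 408, 662, 0 and 581 in inhibitor libraries 1 to 4, so that 6 of the 8 reagent libraries had counts and no control did. Its unadjusted p was 0.0802 by edgeR.

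DESeq2 on the genes of edgeR's filter called 5 genes for mimic against inhibitor, Slc38a6, Gm49378, Gm28048, Mss51 and Tafa4, also named after their values were seen. Of these, 4 had every mimic library on one side of every inhibitor library, and Gm28048 did not. Mss51 had 0 counts in the 4 mimic libraries and 9 to 16 in inhibitor, and Tafa4 10 to 17 in mimic and 0 in inhibitor, so both are near the limit of detection. Gm49378 stood at a log2 fold change of -3.99 for mimic against inhibitor by edgeR (unadjusted p = 0.000515, adjusted p = 1.00) and at -4.02 without control 2 (edgeR adjusted p = 4.64e-09).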
